A study of Mus musculus with 6 samples.

Results

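The unfolded protein response and the ATF4 response were followed through 39 genes in MLE15 cells with and without Nkx2-1-shRNA, out of 19938 genes with a symbol of their own on the arrays. The genes were chosen by name as textbook members of both responses, with earlier results of these data known. All 39 had a transcript cluster (the set of probes that stands for a gene) with that single symbol, and where a gene had more than 1 the brightest on average was read. They were divided into an ATF4 side of 18 genes and an endoplasmic reticulum (ER) side of 21 genes. MLE15 is a lung epithelial line from tumors of mice that express the simian virus large T antigen from the human surfactant protein C promoter. In 3 lines Nkx2-1 was knocked down by a mix of lentiviral shRNAs in the pLKO.1 vector, and 3 control lines carried the empty pLKO.1 vector, which the methods call a non-silencing control. All 6 lines were selected with puromycin, and the labels give a time of 48 h for both groups while the methods describe stable lines, independently transduced. The RNA of each line was hybridized to 1 Affymetrix Mouse Gene 1.0 ST array, and values are given on the log2 scale, so that a difference of 1 is a doubling.

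Cells sense unfolded protein in the ER through a trio of membrane proteins. PERK (gene Eif2ak3) phosphorylates the initiation factor eIF2α, which slows most translation but favors that of ATF4. IRE1 (Ern1) splices the mRNA of the transcription factor XBP1, and ATF6 is cleaved to release a transcription factor of its own. GCN2 (Eif2ak4) phosphorylates the same eIF2α when amino acids run short, so that ATF4 can act without ER stress. ATF4 activates genes of amino acid synthesis, transport and charging through C/EBP-ATF elements, whereas ATF6 and XBP1 activate ER chaperones and degradation factors through ER stress elements. In the lung, alveolar type II cells pass large amounts of surfactant protein through the ER. Splicing of Xbp1, cleavage of ATF6 and translation of ATF4 are not seen by a transcript cluster, which measures mRNA.

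The sequence elements of both sides stood mostly in different promoters. RefSeq promoters (GRCm38.p6, 250 bases before to 50 after each start, both strands searched) were present for 36 of the 39 genes and not for Atf6, Hyou1 and Manf. The letters TGATGNAA of a C/EBP-ATF element were found in 5 of 18 genes of the ATF4 side, in 1 of 18 of the ER side and in 4.51% of all genes with a promoter. All matches are shown, those of Asns, Chac1, Nupr1, Trib3 and Vldlr and that of the ER gene Herpud1. The 5 genes of the ATF4 side with a match were called higher after knock-down, and Herpud1 did not pass. Over all genes above the background limit given below, 15.3% were called higher. Of all 18 genes of the ATF4 side 14 were called higher, among them genes without a match such as Atf4, Ddit3 and Phgdh. Capitals mark the element, read 5′ to 3′ on the strand of the gene.
Asns: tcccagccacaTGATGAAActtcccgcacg
Chac1: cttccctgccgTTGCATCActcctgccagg
Nupr1: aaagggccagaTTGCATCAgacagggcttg
Trib3: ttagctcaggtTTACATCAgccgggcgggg
Vldlr: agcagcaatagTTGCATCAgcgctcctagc
Herpud1: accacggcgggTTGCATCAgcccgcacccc
They lie at chr6:7693214-7693243 (Asns, minus strand), chr2:119351038-119351067 (Chac1, plus), chr7:126625562-126625591 (Nupr1, minus), chr2:152344028-152344057 (Trib3, minus), chr19:27216809-27216838 (Vldlr, plus) and chr8:94386306-94386335 (Herpud1, plus). Only in Asns does the element run in the direction of the gene, at position −23 from the start; in the other 5 it reads as its reverse complement. In Nupr1, Chac1, Vldlr and Herpud1 the 8 letters are the same.

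The ER stress element, CCAAT and CCACG with any 9 bases between them, was found in 8 of 18 genes of the ER side (Calr, Canx, Creld2, Dnajc3, Hsp90b1, Hspa5, Pdia6 and Syvn1), in 0 of 18 of the ATF4 side and in 0.137% of all genes. Of these 8 genes 3 were called lower, 5 did not pass and 0 were called higher. Over all genes above the background limit given below, 13.9% were called lower and 15.3% higher. On the ER side as a whole, 8 of 21 genes were called lower and 3 higher. A link between an element and the change of its gene was not tested. Shown are the 3 genes with a match that were called lower and the chaperone gene Hspa5, which did not pass.
Hspa5: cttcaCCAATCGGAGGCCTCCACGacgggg
Calr: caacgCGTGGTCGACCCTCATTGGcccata
Creld2: cttctCGTGGCGAGCCTCAATTGGtccaca
Syvn1: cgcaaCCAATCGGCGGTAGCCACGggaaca
These lie at chr2:34772020-34772049 (Hspa5, plus), chr8:84847069-84847098 (Calr, minus), chr15:88819515-88819544 (Creld2, plus) and chr19:6046527-6046556 (Syvn1, plus). The element runs with the gene in Hspa5 and Syvn1 and against it in Calr and Creld2. A second form, ATTGG and CCACG with any 1 base between them, was found in Dnajb11 and Herpud1 (0.0444% of all genes), so that Herpud1 holds both a C/EBP-ATF and an ER stress element without overlap. The unfolded protein element TGACGTGG was in none of the 36 promoters and in 0.714% of all genes. A match of letters shows neither binding nor use of a site, and no match says only that the letters are not in this window. The members are textbook genes of these responses, so their shares beside those of all genes are a description and carry no test.

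Nkx2-1 itself had log2 values of 8.61, 8.61 and 8.59 in the control lines and 7.91, 7.98 and 7.83 after knock-down, or 61.8% of control (−0.69, SE 0.076, adjusted p = 0.00155). No line overlapped (exact permutation test, two-sided, p = 0.1, the smallest that 3 lines against 3 can give). Arrays of the same group correlated at 0.991 to 0.994, and arrays of different groups at 0.979 to 0.983. All 10 markers of the lung epithelial line lay above the background limit of 4.35 (the 95th percentile of chemosensory receptor genes) in at least 1 group, 2 of them called higher and 4 lower. Among them Sftpc, the surfactant protein C gene of type II cells, fell from a mean of 7.73 ± 0.45 to 4.08 ± 0.22 (SD, n = 3; −3.65, limma adjusted p = 2.0e-04), or to 7.97% of control and below the limit. The other surfactant protein genes did not follow it to that extent. Sftpa1 fell by less (−0.41), Sftpd was called higher (0.44) and Sftpb did not pass (means 11.69 and 11.83, 0.14). The part of these changes in the ER results was not tested. Of 9 reference genes 1 was called higher (Pgk1, 0.62) and 1 lower (Tbp, −0.28). Of markers of other cells, 6 of 7 for fibroblasts and smooth muscle, 2 of 6 for endothelium and 2 of 6 for leukocytes lay above the background limit. Their summed log2 values ran from 33.9 to 35.0, 25.2 to 26.1 and 25.2 to 26.3 in control and from 34.4 to 35.4, 23.6 to 24.9 and 24.9 to 26.0 in Nkx2-1-shRNA lines. Pecam1, Cdh5, Kdr and Ptprc, which define endothelium and leukocytes, were below the limit in both groups. Above it in control and Nkx2-1-shRNA lines were the leukocyte genes Cd68 (means 6.81 and 6.67) and Cd3e (4.87 and 4.74) and the endothelial gene Vwf (5.84 and 6.26). The endothelial gene Tek lay above it in control only (5.77 and 3.77). For fibroblast and smooth muscle markers limma called 0 of 7 in either direction, with 1 at an unadjusted p under 0.05 and 0 by either alternative test. Tek, at 25.0% of control, was called lower, and Vwf (0.41) and the leukocyte gene Csf1r (0.51, below the limit in both groups) higher. Tek, Vwf, Csf1r, Cd68, Cd3e, the surfactant protein genes and both reference genes were picked out after their values were seen. The part of these cells' RNA in the results was not tested.

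Most genes of the ATF4 side were higher in the Nkx2-1-shRNA lines, and the ER side held calls in both directions. Of the 18 genes of the ATF4 side 14 rose and 4 did not pass (limma, adjusted p under 0.05 over all transcript clusters), with a median log2 fold change of 0.62. Of the 21 genes of the ER side 3 rose, 8 fell and 10 did not pass, with a median of −0.21. Over the 13571 genes above background 29.2% were called, 15.3% higher and 13.9% lower, with a median of −0.0040. None of the ATF4 side fell by limma or by either alternative test (1 at an unadjusted p under 0.05). In bulk RNA, fewer cells of a type and less RNA per cell cannot be told apart.

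The lines did not overlap between the groups for 34 of the 39 genes, 15 on the ATF4 side and 19 on the ER side, against 52.5% of all genes above background. Averaged over the 18 genes of the ATF4 side, the log2 values lay 0.75, 0.81 and 0.73 above the control mean in Nkx2-1-shRNA replicates 1, 2 and 3. The control lines themselves lay at −0.031, 0.066 and −0.034. For the 21 genes of the ER side the same average was −0.12, −0.12 and −0.15 after knock-down and 0.032, 0.035 and −0.068 in control lines. The difference between both averages within an array, which no centring of arrays can change, was 0.87, 0.93 and 0.87 in the knock-down lines and −0.064, 0.030 and 0.033 in the control lines. These averages describe the chosen genes and carry no test.

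**Figure D1:**
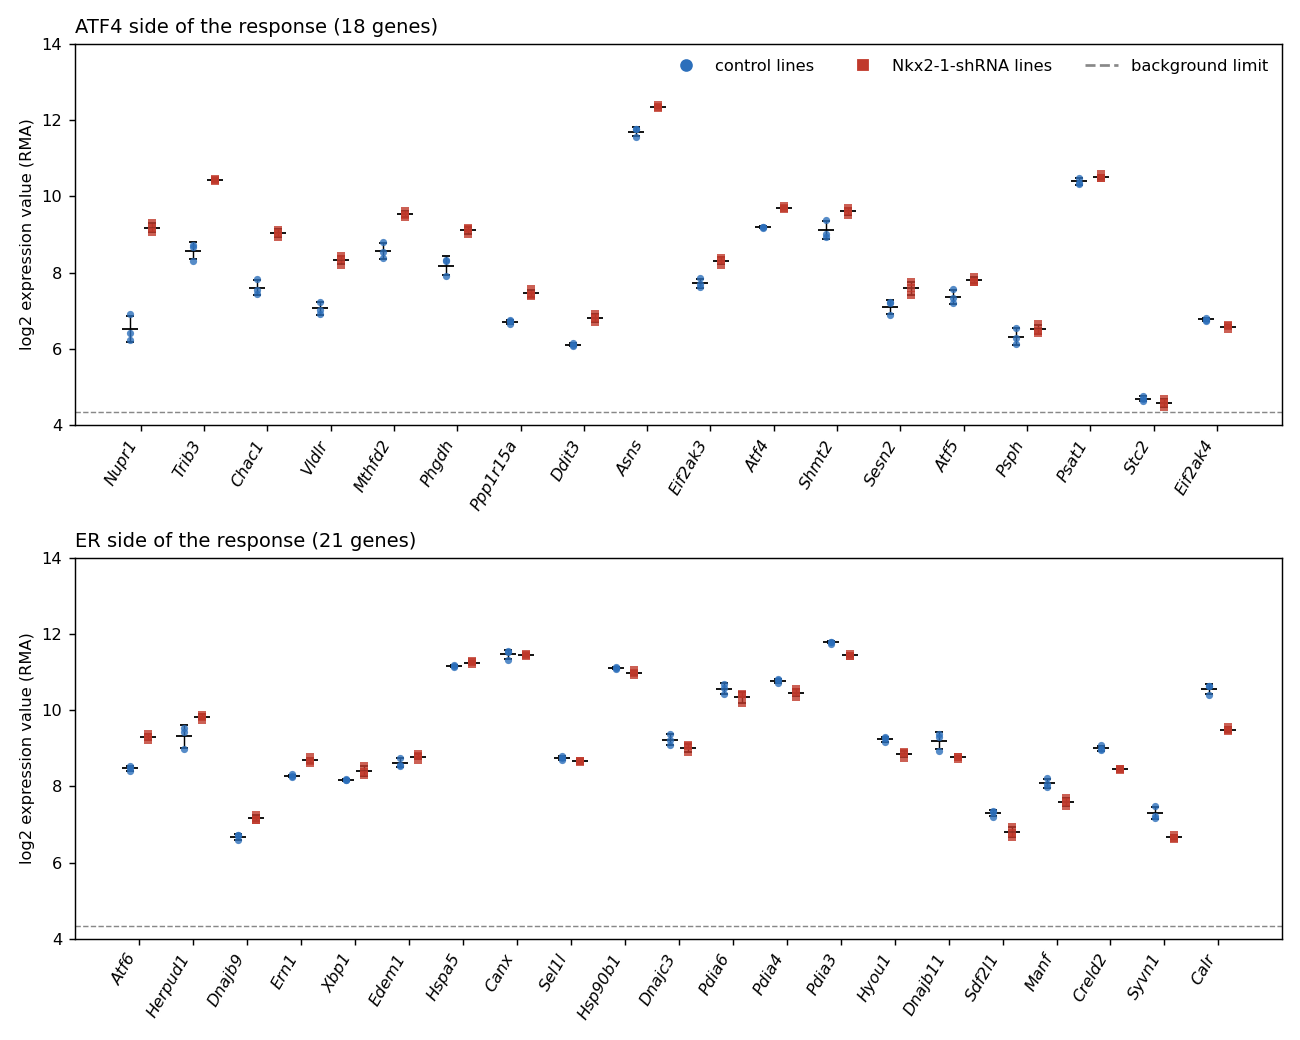
Log2 expression values (vertical axis) of the 18 genes of the ATF4 side (top) and the 21 of the ER side (bottom), ordered by change from highest to lowest, in the 3 control lines (blue circles) and 3 Nkx2-1-shRNA lines (red squares); black marks give group means and SDs and the background limit of 4.35 as a dashed line. Nupr1 and Trib3 stand furthest apart at the left of the top panel and Calr at the right of the bottom panel, and the groups are separate for 34 of the 39 genes.

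Of 3 kinases and 1 phosphatase subunit, all rose but the amino acid sensor GCN2 (75% called, against 29.2% of genes above background). Eif2ak3 had log2 values of 7.85, 7.69 and 7.62 in the control lines and 8.40, 8.33 and 8.21 in the Nkx2-1-shRNA lines, a rise of 0.59 (SE 0.095, adjusted p = 0.00715). Among its 20 nearest genes above background on chromosome 6, 8 were called higher and 0 lower (median 0.14), against 15.3% and 13.9% of all genes above background. Their part in this rise was not tested. Ern1 rose from 8.26, 8.27 and 8.31 to 8.68, 8.62 and 8.76 (0.40, adjusted p = 0.0136; 0.00395 to 0.0704 over the alternatives), a call that ended without Nkx2-1-shRNA replicate 1 or 3 and with unequal variances. Both kinase genes were higher in every knock-down line than in any control line. Ppp1r15a, which encodes GADD34, the subunit that brings a phosphatase back to eIF2α, rose from 6.75, 6.64 and 6.72 to 7.39, 7.41 and 7.57 (0.75, adjusted p = 0.00173). Eif2ak4 had values of 6.82, 6.73 and 6.76 in control and 6.53, 6.59 and 6.62 in Nkx2-1-shRNA lines. Its log2 fold change of −0.19 did not pass (95% confidence interval −0.37 to −0.013, adjusted p = 0.142), although the lines did not overlap.

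Of the 7 transcription factors and regulators 6 rose (85.7% called, against 29.2% of genes above background). Nupr1, a small stress-induced chromatin protein that ATF4 activates, had the largest change of the 39 genes. Its log2 values were 6.42, 6.90 and 6.23 in the control lines and 9.17, 9.30 and 9.06 in the Nkx2-1-shRNA lines, a 6.30-fold rise (2.66, SE 0.18, adjusted p = 2.4e-04). Trib3, a pseudokinase that restrains ATF4 and AKT, rose 3.63-fold from 8.66, 8.73 and 8.32 to 10.43, 10.46 and 10.40 (1.86, SE 0.12, adjusted p = 2.2e-04). In the limma fit these 2 were the only members past the stricter threshold of the study, in which the adjusted p is below 0.0005 and the log2 change exceeds 0.6 in either direction, which 2.76% of genes above background (374) passed in this fit. Which members passed in the study's own test is not given by this count.

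Atf4 itself changed less than either. It stood at 9.17, 9.21 and 9.20 in control and at 9.66, 9.70 and 9.75 in Nkx2-1-shRNA lines, a rise to 142% of control (0.51, SE 0.071, adjusted p = 0.00423). Ddit3, which encodes CHOP, a factor downstream of ATF4 that promotes cell death under lasting stress, rose from 6.08, 6.09 and 6.15 to 6.91, 6.82 and 6.70 (0.70, adjusted p = 0.00234). Both had tight control values, with an SD of 0.020 for Atf4 and 0.035 for Ddit3. Atf5, a relative of ATF4 under the same translational control, rose by 0.43 (adjusted p = 0.0401; 0.0110 to 0.190 over the alternatives), a call that ended in 9 of 16 alternatives, among them the fits without any one Nkx2-1-shRNA line and without control replicate 1 or 2.

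Of the transcription factor genes of the ER side, Atf6 rose and Xbp1 did not pass. Atf6 had log2 values of 8.49, 8.53 and 8.39 in control and 9.29, 9.22 and 9.37 in Nkx2-1-shRNA lines (0.82, SE 0.083, adjusted p = 0.00113), or 177% of control. Of the 20 neighbors of Atf6 on chromosome 1, 7 were called higher and 3 lower (median 0.0063), and their part was not tested. Xbp1 had 8.16, 8.20 and 8.16 against 8.37, 8.54 and 8.30, and this difference of 0.23 did not pass (95% confidence interval 0.019 to 0.44, adjusted p = 0.137). The lines did not overlap for either gene.

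Enzymes of asparagine, serine and one-carbon metabolism rose in part. Of 6 genes 4 rose (66.7% called, against 29.2% of genes above background), and the median log2 fold change of the 6 was 0.58. Asns, the asparagine synthetase, had values of 11.76, 11.78 and 11.57 in the control lines and 12.33, 12.35 and 12.40 in the Nkx2-1-shRNA lines (0.66, SE 0.087, adjusted p = 0.00335). Mthfd2, a mitochondrial folate enzyme, rose from 8.39, 8.54 and 8.80 to 9.52, 9.62 and 9.46 (0.96, adjusted p = 0.00275). Phgdh, which opens serine synthesis, rose from 7.91, 8.31 and 8.34 to 9.13, 9.18 and 9.01 (0.92, adjusted p = 0.00465). These 3 were separate in every line. A transcript cluster shared by Phgdh and Gm6756, not counted among the members, rose by 0.81 (adjusted p = 0.00150).

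The genes of the later steps of serine synthesis did not pass, and their difference from Phgdh was not tested. Psat1, the aminotransferase of the middle step, stood at 10.36, 10.50 and 10.33 in control and 10.47, 10.58 and 10.48 in Nkx2-1-shRNA lines, with overlap (0.11, 95% confidence interval −0.082 to 0.31, adjusted p = 0.429). Psph, the phosphatase of the last step, overlapped as well (0.19, 95% confidence interval −0.12 to 0.50, adjusted p = 0.405). Shmt2, which makes glycine from serine in mitochondria, rose by 0.50 (adjusted p = 0.0440; 0.0104 to 0.226 over the alternatives). This call ended in 8 of 16 alternatives, among them the fits without any one Nkx2-1-shRNA line and without control replicate 1 or 3.

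Among the other effectors of ATF4, 3 of 4 rose (75% called, against 29.2% of genes above background). Chac1, which degrades glutathione, had log2 values of 7.54, 7.83 and 7.44 in control and 8.94, 9.13 and 9.05 in Nkx2-1-shRNA lines, a 2.70-fold rise (1.43, SE 0.12, adjusted p = 5.7e-04). Vldlr, the very low density lipoprotein receptor, rose 2.41-fold from 7.24, 6.92 and 7.02 to 8.42, 8.20 and 8.35 (1.27, SE 0.11, adjusted p = 6.6e-04). Neither gene overlapped between the groups. Sesn2, a leucine sensor that restrains mTORC1, rose by 0.48 (adjusted p = 0.0472; 0.0118 to 0.167 over the alternatives), and this call ended in 9 of 16 alternatives, among them every fit without 1 line. Stc2, a secreted glycoprotein gene, lay close to the background limit, with means of 4.70 ± 0.071 and 4.58 ± 0.098 (SD, n = 3), and did not pass (adjusted p = 0.441).

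**Figure D2:**
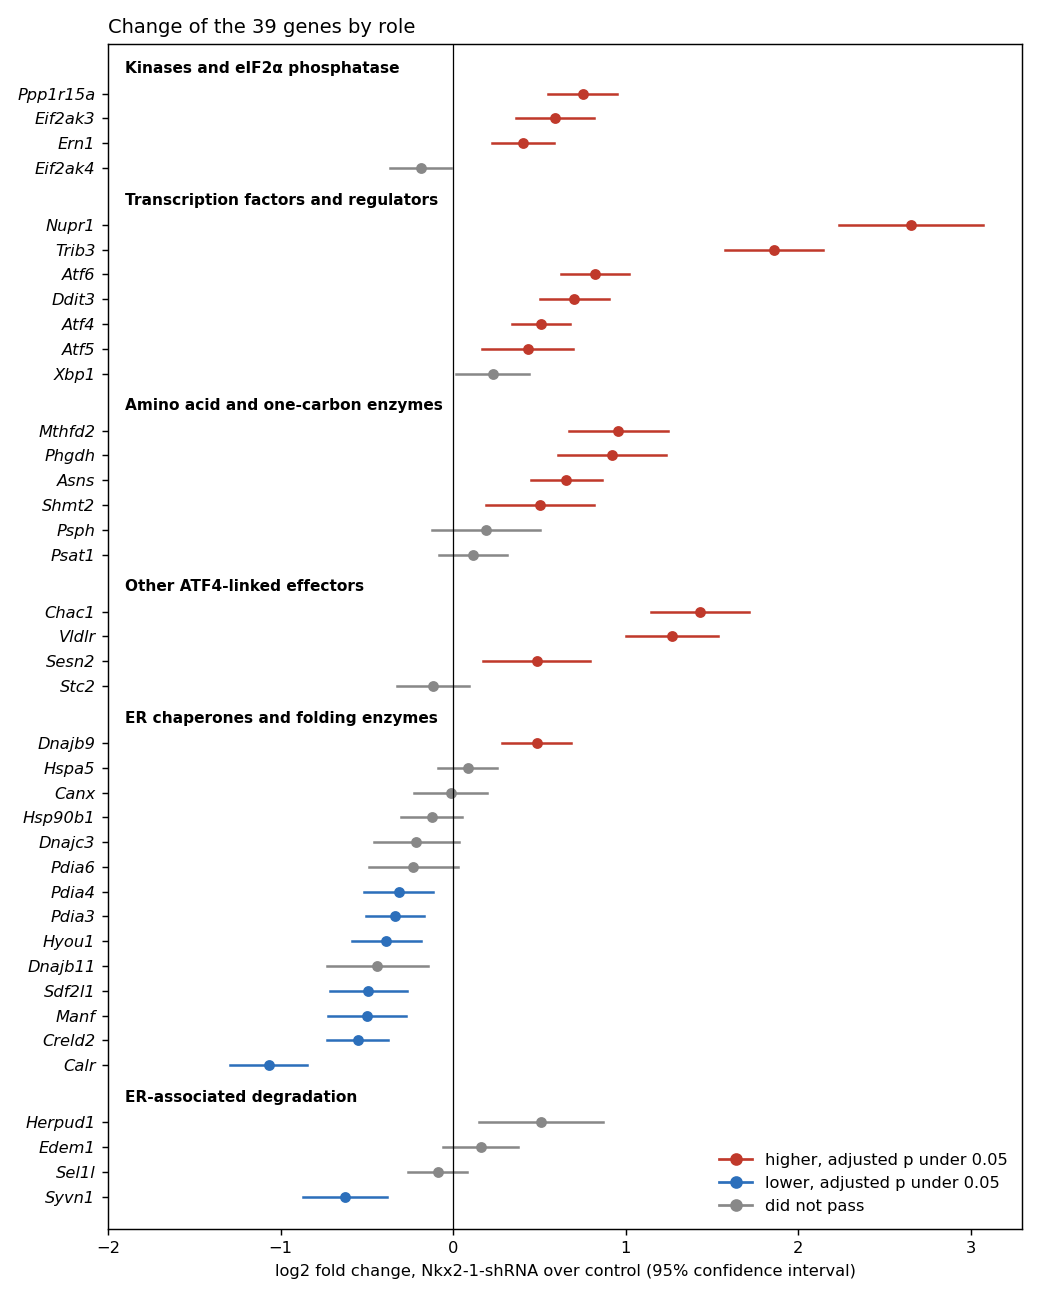
Log2 fold changes (horizontal axis, Nkx2-1-shRNA over control, 3 lines each) with 95% confidence intervals for the 39 genes, grouped by role on the vertical axis; red genes were higher and blue genes lower at an adjusted p under 0.05, and grey genes did not pass. Most points of the upper groups are red, up to Nupr1 at 2.66, with Eif2ak4, Xbp1, Psph, Psat1 and Stc2 in grey. Blue points lie among the ER chaperones, down to Calr at −1.07, and at Syvn1.

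Of 14 chaperones and folding enzymes of the ER 7 fell, 1 rose and 6 did not pass, with a median log2 fold change of −0.33. This is 57.1% called, against 29.2% of genes above background (15.3% higher and 13.9% lower). The count of 7 was 4 after median centring, 2 without Nkx2-1-shRNA replicate 1 and 4 without Nkx2-1-shRNA replicate 2 or 3 or control replicate 1 or 2. Calr, the calcium-binding lectin chaperone calreticulin, fell most, from 10.41, 10.64 and 10.64 in the control lines to 9.48, 9.55 and 9.44 in the Nkx2-1-shRNA lines, or to 47.7% of control (−1.07, SE 0.093, adjusted p = 6.5e-04). Of its 20 neighbors on chromosome 8, 5 were called lower and 1 higher (median −0.13), and their part was not tested. Canx, the membrane-bound relative of calreticulin, had means of 11.46 ± 0.12 and 11.45 ± 0.018 (SD, n = 3; −0.016, 95% confidence interval −0.22 to 0.19), and its sign turned with median centring (0.065) and without control replicate 1 (0.025) or 2 (0.016).

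The next largest falls among the 14 genes were those of Creld2, Manf and Sdf2l1. Creld2, an ER stress-inducible protein with EGF-like domains, went from 9.08, 8.97 and 8.96 to 8.45, 8.46 and 8.43 (−0.55, SE 0.075, adjusted p = 0.00365). Manf, a secreted factor that binds BiP, went from 8.05, 8.22 and 7.99 to 7.49, 7.68 and 7.59 (−0.50, adjusted p = 0.0143). Sdf2l1, a BiP cofactor, went from 7.32, 7.35 and 7.21 to 6.79, 6.93 and 6.68 (−0.49, adjusted p = 0.0140). In these 3 genes every knock-down line was below every control line, and in the fit without Nkx2-1-shRNA replicate 1 the calls of Manf (adjusted p = 0.0598; 0.00270 to 0.0737 over the alternatives) and Sdf2l1 (adjusted p = 0.0564; 0.00270 to 0.0869) ended.

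The chaperone genes Hspa5 and Hsp90b1 differed less and did not pass. Hspa5, which encodes BiP, the chaperone that holds the ER stress sensors inactive, had log2 values of 11.18, 11.17 and 11.14 in control and 11.25, 11.28 and 11.21 in Nkx2-1-shRNA lines. Its groups did not overlap, but the log2 fold change of 0.083 did not pass (95% confidence interval −0.086 to 0.25, adjusted p = 0.513). Hsp90b1, which encodes GRP94, had −0.13 (adjusted p = 0.333). The oxygen-regulated chaperone Hyou1 fell by 0.39 (adjusted p = 0.0218; 0.00685 to 0.0726 over the alternatives), and the disulfide isomerase genes Pdia3 by 0.34 (adjusted p = 0.0192; 0.00336 to 0.0797) and Pdia4 by 0.31 (adjusted p = 0.0463; 0.0160 to 0.141). These 3 calls ended with median centring and without any one of Nkx2-1-shRNA replicates 1, 2 and 3 and control replicates 1 and 2, that of Pdia4 also without control replicate 3. A dimmer transcript cluster of Pdia4 fell by 0.49 (adjusted p = 0.0180). Pdia3 lies on chromosome 2 among 20 neighbors of which 7 were called lower and 0 higher (median −0.24), and their part was not tested. Pdia6, another isomerase, did not pass (−0.23, adjusted p = 0.215).

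Of 3 J-domain cochaperones of BiP 1 rose and 2 did not pass. Dnajb9 (ERdj4), which IRE1 and XBP1 are known to induce, was the chaperone gene that rose, from 6.71, 6.73 and 6.59 to 7.25, 7.12 and 7.11 (0.48, SE 0.084, adjusted p = 0.00970). Dnajb11 (ERdj3) lay at 9.30, 9.37 and 8.94 in control and 8.78, 8.73 and 8.78 in Nkx2-1-shRNA lines, without overlap, and narrowly did not pass (−0.44, adjusted p = 0.0543; 0.00963 to 0.276 over the alternatives, with a call in 6 of 16). Dnajc3, which encodes p58IPK, an inhibitor of PERK, did not pass either (−0.21, adjusted p = 0.233); its 2 transcript clusters held the same values.

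Of the 4 genes of ER-associated degradation 1 fell and 3 did not pass (25% called, against 29.2% of genes above background). Syvn1, the ubiquitin ligase HRD1, fell from 7.18, 7.22 and 7.48 to 6.64, 6.63 and 6.73 (−0.63, SE 0.10, adjusted p = 0.00788). Its partner Sel1l stood at 8.74 ± 0.043 in control and 8.65 ± 0.020 in Nkx2-1-shRNA lines (SD, n = 3; −0.090, adjusted p = 0.478). Herpud1, a membrane protein of the same complex, had 9.42, 9.54 and 8.97 against 9.75, 9.88 and 9.83, without overlap, and a log2 fold change of 0.51 that did not pass (SE 0.15, adjusted p = 0.0656; 0.0176 to 0.300 over the alternatives, with a call in 4 of 16). Control replicate 3 was the low one of its group. Edem1, a lectin that sends glycoproteins to degradation, overlapped (0.16, adjusted p = 0.308). None of these 4 rose by limma or by either alternative test, with 1 higher at an unadjusted p under 0.05.

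The count of 8 falling genes on the ER side depended on the libraries and the scaling. It was 3 without Nkx2-1-shRNA replicate 1, 5 without Nkx2-1-shRNA replicate 2 or 3 or control replicate 1 or 2, and 5 after median centring, with 4 genes then called higher. The count of 14 rising genes on the ATF4 side was 11 to 12 without any 1 line. It was 4 with a test that allows unequal variances (Atf4, Chac1, Vldlr and Ppp1r15a). In that test the calls of Nupr1 (adjusted p = 0.0529), Trib3 (0.0662), Ddit3 (0.0678) and Eif2ak3 (0.0536) ended. So did those of Asns (0.0793), Mthfd2 (0.0891) and Phgdh (0.115), and on the ER side those of Creld2 (0.0564) and Syvn1 (0.116).

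The other genes of both responses were read from 7 lists drawn up by role, also with earlier results of these data known. Of 145 listed genes 135 were measured, and 41 rose, 16 fell and 78 did not pass. This is 42.2% called, against 29.2% of genes above background (15.3% higher and 13.9% lower). Of 9 amino acid transporters of the ATF4 response 7 rose and 2 did not pass, with a median of 0.52. The glycine transporter Slc6a9 rose from 8.35, 8.35 and 8.21 to 9.59, 9.59 and 9.60 (1.29, adjusted p = 1.6e-04). Slc1a4, a carrier of neutral amino acids, rose by 1.12, the cystine carrier Slc7a11 by 1.07 and the large neutral amino acid carrier Slc7a5 by 0.55. Of 18 cytosolic aminoacyl-tRNA synthetases 11 rose, 1 fell and 6 did not pass, with a median of 0.39. The largest changes were those of Lars (0.81, adjusted p = 9.6e-04), Cars (0.69), Yars (0.67) and Sars (0.66), which charge tRNAs with leucine, cysteine, tyrosine and serine.

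Of 22 other targets of ATF4 and CHOP 14 rose and 1 fell, with a median of 0.72. The growth arrest gene Gadd45a rose most, from 8.13, 7.76 and 7.68 to 10.86, 10.83 and 10.90 (3.00, adjusted p = 6.8e-05). Ero1a, the oxidase that recharges disulfide isomerases, rose by 1.94, the hormone gene Fgf21 by 1.67 and the alanine aminotransferase gene Gpt2 by 1.57. By contrast, of 12 genes of eIF2, its other kinases and its exchange factor 1 rose and 5 fell. This is 50% called, against 29.2% of genes above background (15.3% higher and 13.9% lower). The median of the 12 was −0.28. After median centring it was −0.20, with 1 called higher and 4 lower. The falls were led by Impact, an inhibitor of GCN2 (−0.67, adjusted p = 0.00508), the exchange factor subunit Eif2b2 (−0.59) and the kinase genes Eif2ak2 (PKR, −0.55) and Eif2ak1 (HRI, −0.52).

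The further genes of the ER were called no more often than genes above background in general. Of 29 further folding enzymes and chaperones 2 rose and 4 fell (20.7% called, against 29.2%), with a median of −0.096; median centring gave 4 higher and 3 lower. The calcium-binding protein gene Rcn1 fell from 6.40, 6.55 and 6.42 to 4.79, 4.98 and 4.93 (−1.56, adjusted p = 1.4e-04), and the isomerase genes Pdia5 and Fkbp11 fell by 0.78 and 0.71. Sil1, the exchange factor of BiP, rose from 7.08, 7.15 and 7.06 to 8.04, 8.08 and 8.07 (0.97, adjusted p = 3.7e-04). Of 28 further genes of degradation and translocation 2 rose and 3 fell (17.9% called), with a median of −0.049 that was 0.031 after median centring, which gave 5 higher and 2 lower. The lectin gene Erlec1 rose by 0.62, while the translocon-associated gene Ssr2 fell by 0.62, the segregase gene Vcp by 0.44 and Selenos, a membrane selenoprotein gene, by 0.43.

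Of 17 membrane-bound factors and modulators of the response 4 rose and 2 fell (35.3% called, against 29.2% of genes above background). Their median of −0.0057 was above 0 after quantile normalization or median centring. Nfe2l1, a factor that is anchored in the ER membrane and controls proteasome genes, rose by 0.87 (adjusted p = 6.4e-04), and Wfs1, the Wolfram syndrome gene, by 0.51. Creb3l1, a relative of ATF6, fell by 0.52. Casp12 rose by 1.47, with both group means (2.70 and 4.17) below the background limit.

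**Figure D3:**
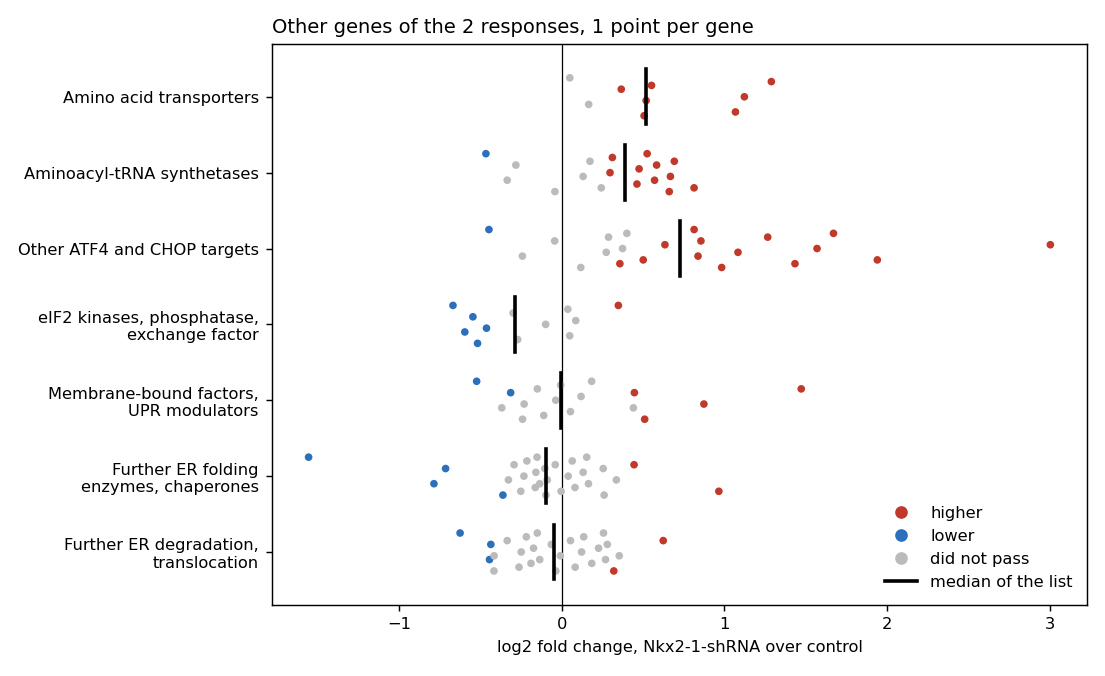
Log2 fold changes (horizontal axis, Nkx2-1-shRNA over control) of 135 other genes of both responses in 7 lists (vertical axis), 1 point per gene, spread vertically only for legibility, with the median of each list as a black bar. Red genes were higher and blue genes lower at an adjusted p under 0.05; the medians of the top 3 lists lie at 0.52, 0.39 and 0.72 and that of the eIF2 list at −0.28, while those of the lower 3 lie between −0.096 and −0.0057, 2 of which are above 0 after median centring.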

How the data were processed

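The deposited values are log2 expression. The authors hybridized RNA of 3 Nkx2-1-shRNA and 3 control lines to Mouse Gene 1.0 ST arrays and summarized them by RMA, which subtracts background, quantile-normalizes and summarizes probes, in Affymetrix Expression Console 1.1, per the methods and the submitters' processing notes. Quantile normalization sets the arrays to like distributions, so that changes are relative. The genome build was not given in the sources used here. Members and lists were chosen with earlier results of these data known. The comparison used lmFit and eBayes of limma 3.58.1 (R 4.3.3) without a block, with 4 residual plus 2.86 prior degrees of freedom, two-sided, adjusted by Benjamini-Hochberg over 35557 transcript clusters. Intervals are at 95%. Named were all 39 members, Nkx2-1, up to 4 called genes with the largest change in each further list, and markers that define a cell type; other markers were given as counts, and those named beyond this are said to have been picked afterwards. Neighbors are up to 10 genes above background on either side of a gene, ordered in RefSeq (GRCm38.p6). Their counts are given for some genes only, and neighbors did not always move with a gene. Around Herpud1 0 were called higher and 5 lower, and around Asns 2 higher and 6 lower. Edem1, which did not pass, had 10 neighbors called higher and 1 lower. The second ER stress element was added after the others. Precision rests on the number of arrays. The fit was tested on simulated data. Alternative tests were the methods' t-test and one that allows unequal variances. Further alternatives were a robust prior with a trend, array weights, another quantile normalization, median centring, 2 filters, means over transcript clusters of a gene, a replicate block, leaving out each line and, for counts, the threshold of the study.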

Additional observations from a re-analysis of the deposited data

How the results depend on the processing

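Of the 39 genes and Nkx2-1, Canx alone turned its sign in any alternative: to 0.065 with median centring, and within a range of −0.087 to 0.025 when 1 line was left out. With a t-test for unequal variances, 6 members were higher and 2 lower (4 higher on the ATF4 side, 2 lower on the ER side), the further lists gave 17 higher and 3 lower, and Nkx2-1 (−0.69) had an adjusted p of 0.0550. At the threshold of the study, 2 members were higher and 0 lower, both on the ATF4 side with 0 of either direction on the ER side, and the further lists gave 7 and 1. The methods' t-test gave 9 lower in the further lists. Median centring left 5 members lower, all on the ER side; over all transcript clusters it moved the share of calls that were higher from 45.2% to 59.5%. Without any 1 line, 13 to 16 members were higher and 3 to 8 lower (11 to 12 higher on the ATF4 side, 2 to 4 higher and 3 to 8 lower on the ER side), and the further lists gave 27 to 34 and 7 to 16, the lowest counts without Nkx2-1-shRNA replicate 1 (27 and 7) or 3 (7 lower). With the replicate number as a block, 15 members were higher and 5 lower, all 5 on the ER side. Whether the numbers pair the lines was not settled: deviations of lines with the same number correlated at 0.089, 0.22 and −0.055. Nkx2-1-shRNA replicates 1 and 2 correlated best with the control of their own number, and replicate 3 with control replicate 1 (0.22). Deviations from a mean of 3 arrays depend on each other, so these values cannot exclude a pairing. The causes of these differences were not tested. An array gives no counts, and 3 lines a group limit what can be called: the smallest difference called among the members was that of Pdia4 (−0.31), and a gene that did not pass was not shown to be unchanged.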
